A study of Caenorhabditis elegans with 11 samples.

Results

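The mir-63 seed family of the nematode Caenorhabditis elegans was followed over 4 ages in small RNA libraries. Its 5 hairpins, mir-63, mir-64, mir-65, mir-66 and mir-229, were taken by name (cel-mir-63, cel-mir-64, cel-mir-65, cel-mir-66 and cel-mir-229) from a table of read counts for 250 microRNA hairpins. All 5 had enough counts to be tested, among 145 hairpins that did. The libraries were made from total RNA of whole hermaphrodites of N2, the standard laboratory strain, which carried no further allele and received no treatment that the labels name. There were 3 libraries of worms aged 1 day, 3 at 5 days, 3 at 10 days and 2 at 20 days. The labels do not say from which stage the days run. They do not state either whether same-age libraries had separate cultures as their source, and p-values may therefore reflect only technical spread.

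MicroRNAs are short RNAs cut from hairpin precursors, and they lower the output of messenger RNAs to which they pair. Pairing rests mainly on the seed, a short stretch near the 5′ end, so members of a seed family can bind overlapping sets of targets while differing in the rest of their sequence. In C. elegans many microRNA families can be removed without visible harm to the animal, and members of a family often differ in where and when they are made.

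The family has 2 loci in the WBcel235 annotation (1-based coordinates). mir-229 (III, 2172452 to 2172566), mir-64 (2172848 to 2172957), mir-65 (2173002 to 2173101) and mir-66 (2173108 to 2173206) follow each other on the plus strand of chromosome III. They are separated by gaps of 281, 44 and 6 bases. All 4 lie in intron 11 of gcn-1 (2168149 to 2174577), on the same strand as this gene, which encodes a regulator of the translational stress response. mir-63 stands alone on chromosome X (17598765 to 17598868, minus strand), between genes, 1618 bases from the galectin gene lec-9 and 18885 bases from the neuropeptide receptor gene frpr-7. Each hairpin is annotated with 2 mature arms, and the deposited count does not separate them.

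Total counts ranged from 955506 to 1800586 per library, and levels are given as CPM, counts divided by library size, after TMM scaling, which aims to match libraries on the bulk of their hairpins. A level is therefore relative to the other microRNAs of the same library. After TMM the median log2 change over all hairpins was still 0.15 at 10 against 1 day and 0.19 at 10 against 5 days. In whole animals, fewer cells of a type and less RNA per cell cannot be told apart. All 14 hairpins listed as markers of embryos and germline, muscle, intestine, glia or neurons were present and tested. The summed level of the 8 hairpins of embryos and germline was 155415 to 205517 CPM at 1 day, 184346 to 210332 CPM at 5 days, 265636 to 294854 CPM at 10 days and 288292 to 318372 CPM at 20 days.

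The 5 hairpins differed widely in abundance. mir-65 was the most abundant member, at rank 17 of 145 hairpins averaging 14148.6 CPM across the 11 libraries, and mir-64 stood next at rank 20 with 12859 CPM. mir-66 (rank 35, 4532.6 CPM) and mir-229 (rank 37, 2680.4 CPM) came after them, and mir-63 was the scarcest at rank 59 with 523 CPM. mir-64 and mir-65 are close in sequence, and the sources do not say how reads matching both were counted, so the value of each is uncertain.

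mir-63, the hairpin on chromosome X, was highest at 5 days and lowest at 20 days. Its libraries held 488, 435 and 469 CPM at 1 day, 735, 726 and 666 CPM at 5 days, 640, 538 and 596 CPM at 10 days, and 213 and 243 CPM at 20 days. Both 20-day libraries lay below every other library, and all 5-day libraries lay above all others. The means were 464 ± 26.8 (SD, n = 3), 709 ± 37.4 (n = 3), 591 ± 51.5 (n = 3) and 228 ± 21.0 CPM (n = 2). In the order of levels, 5 days did not pass against 10 days while the other neighbours passed. The steps between 5 and 10 days and between 10 days and 1 day both depended on the scaling, as the comparisons of these ages show.

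mir-66, the last hairpin of the chromosome III cluster, was highest at 10 days. It reached 3576, 3359 and 3552 CPM at 1 day, 4614, 4314 and 3998 CPM at 5 days, 7073, 5401 and 6113 CPM at 10 days, and 4063 and 3794 CPM at 20 days. Every 10-day library was above every library of another age, and the 1-day libraries were the lowest. The means were 3496 ± 119 (SD, n = 3), 4309 ± 308 (n = 3), 6196 ± 839 (n = 3) and 3929 ± 191 CPM (n = 2). Neither 5 against 20 days nor 20 against 1 day passed.

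mir-65, whose 3′ end lies 6 bases before mir-66, was highest at 1 day. Levels were 20125.9, 17133 and 19068 CPM at 1 day, 10333, 13121 and 12389.9 CPM at 5 days, 14332, 12889.8 and 15475 CPM at 10 days, and 10626 and 10141 CPM at 20 days. All 1-day libraries were above all later ones, and the 5-day libraries overlapped with those of 10 and of 20 days. The means were 18776 ± 1518 (SD, n = 3), 11948 ± 1446 (n = 3), 14232 ± 1295 (n = 3) and 10384 ± 343 CPM (n = 2).

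mir-64 had the same order of ages as mir-65. It was at 16940.3, 14627 and 16234 CPM at 1 day, 9466, 13057 and 11405 CPM at 5 days, 12734, 11652 and 14199 CPM at 10 days, and 11017 and 10118 CPM at 20 days. Its lowest 1-day library lay only just above its highest 10-day library, and the later ages overlapped with each other, except that the 10-day libraries were all above those of 20 days. The means were 15934 ± 1185 (SD, n = 3), 11309 ± 1798 (n = 3), 12862 ± 1278 (n = 3) and 10567 ± 635 CPM (n = 2).

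mir-229, the first hairpin of the cluster, was high at 1 day and lower at each later age, where its libraries overlapped. It measured 4709.6, 3948 and 3247 CPM at 1 day, 1895, 2855 and 2203 CPM at 5 days, 2469, 1718 and 2383 CPM at 10 days, and 1706 and 2350 CPM at 20 days. The means were 3968 ± 732 (SD, n = 3), 2318 ± 490.1 (n = 3), 2190.0 ± 411 (n = 3) and 2028 ± 455 CPM (n = 2). Its libraries of 1 age varied more than those of the other members, with coefficients of variation of 18.4% to 22.5%, against 3.30% to 15.9% for the other 4.

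**Figure D1:**
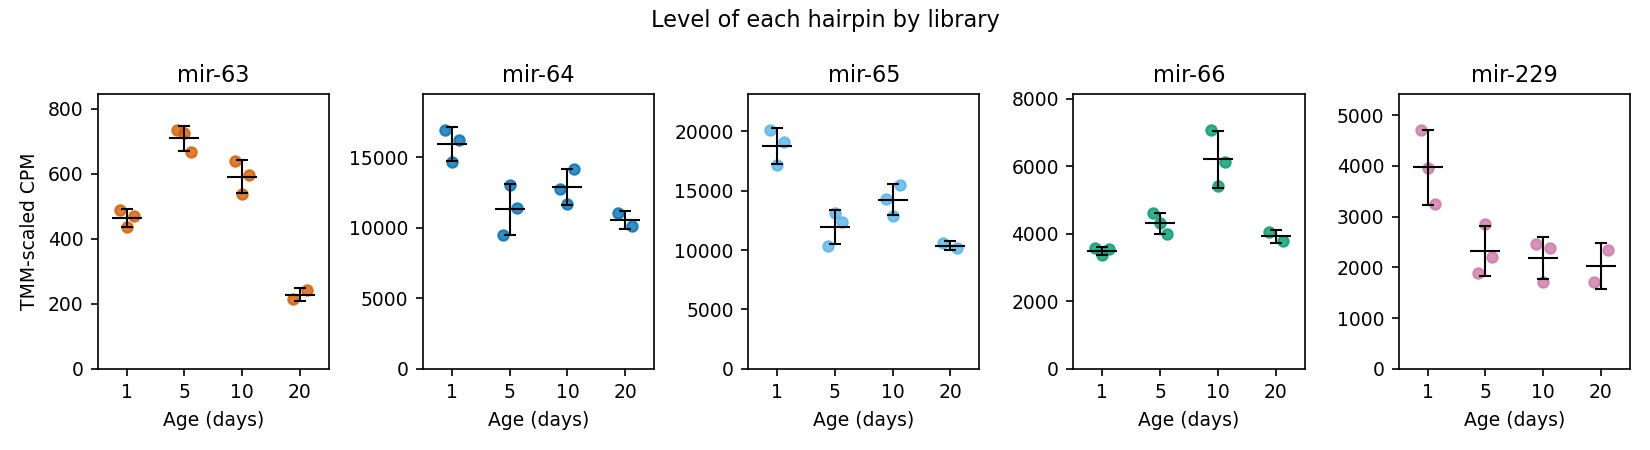
TMM-scaled CPM (vertical axes, linear from 0, a scale per hairpin) of the 5 hairpins against age in days, with a point per library and a bar for the mean ± SD (n = 3, or 2 at 20 days). mir-63 peaked at 5 days and mir-66 at 10 days, while mir-64, mir-65 and mir-229 were highest at 1 day.

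With age as a factor of 4 levels, all 5 hairpins differed in edgeR's quasi-likelihood test with Benjamini-Hochberg adjustment over 145 hairpins, with adjusted p from 9.30e-08 for mir-63 to 0.00323 for mir-64. Of all 145 hairpins tested 80.0% did so, and no alternative lost a member.

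The first comparison asked how the family stood at 5 days against 1 day. mir-64, mir-65 and mir-229 fell, and mir-63 and mir-66 rose. mir-63 rose 1.53-fold (log2 change 0.61 ± 0.12 (SE), edgeR adjusted p = 0.000415), and mir-66 rose 1.23-fold (0.30 ± 0.12, adjusted p = 0.0489). mir-229 fell 1.71-fold (-0.78 ± 0.18, adjusted p = 0.00205), mir-65 fell 1.57-fold (-0.65 ± 0.12, adjusted p = 0.000247) and mir-64 fell 1.41-fold (-0.49 ± 0.13, adjusted p = 0.00398). Thus 5 of 5 members passed, where 47.6% of all hairpins did, 21.4% as higher and 26.2% as lower. No member overlapped between the ages, against 52.4% of all hairpins without overlap. The median log2 change of the 5 was -0.49, beside -0.0024 for all hairpins. The call of mir-66 rested on few data: it was lost without any 1 of the 1-day libraries, without 5-day replicate 1 or 10-day replicate 3 (log2 changes of 0.22 to 0.31), and with upper-quartile (0.14) or total-count scaling (0.22), a minimum of 50 CPM (0.23), lane as a fixed term (0.25) or robust fitting (0.30). The other 4 calls held under every alternative run. Over all hairpins the split of 31 higher to 38 lower became 21 to 46 when upper quartiles set the scale; their median log2 change then moved by -0.15. Of the 14 tissue-restricted hairpins 3 rose and 2 fell. The intestinal mir-60 (0.71) and mir-35 (0.62) and mir-36 (0.57) of embryos and germline rose, and the neuronal mir-124 (-0.78) and lsy-6 (-0.85) fell. The other hairpins of embryos and germline did not pass, with log2 changes from -0.22 for mir-42 to 0.20 for mir-38. The neuronal mir-791 (0.27) did not pass either. The part of these tissue-restricted hairpins in the changes of the family was not tested.

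At 10 days against 1 day, mir-66 had its largest rise, from 3496 to 6196 CPM, while its neighbours stayed lower. It rose 1.77-fold (log2 change 0.83 ± 0.12 (SE), edgeR adjusted p = 1.13e-05), and values under the alternatives were 0.49 to 0.94, all past the threshold. mir-229 fell 1.81-fold (-0.86 ± 0.18, adjusted p = 0.000573), mir-65 fell by 0.40 ± 0.12 (adjusted p = 0.00772) and mir-64 fell by 0.31 ± 0.13 on the log2 scale (adjusted p = 0.0451). mir-63 rose by 0.35 ± 0.12 (adjusted p = 0.0174). The 5 members passed, 2 as higher and 3 as lower, where 64.1% of all hairpins passed, 37.2% as higher and 26.9% as lower. Members without overlap between the ages were 5, against 68.3% of all hairpins, and the median log2 change was -0.31 for members and 0.15 for all hairpins. The rise of mir-63 depended on scaling: it was 0.06 with total counts, 0.02 with a minimum of 50 CPM and 0.20 with no filter, and no longer passed in a fit to the 2 ages alone (0.19), with mir-64 and mir-65 summed (0.21) or with lane as a fixed term (0.54). That call was also lost without 1-day replicate 2 (0.16), 10-day replicate 1 (0.15), 20-day replicate 1 (0.19) or 20-day replicate 2 (0.19). mir-64 lost its call without 1-day replicate 3 (-0.30), 5-day replicate 3 (-0.31) or 10-day replicate 2 (-0.24), and with upper-quartile scaling mir-64 (-0.24) and mir-65 (-0.33) both did. Both falls were larger with total counts (-0.60 for mir-64 and -0.69 for mir-65), with a minimum of 50 CPM (-0.64 and -0.73) and without 1-day replicate 2 (-0.51 and -0.61). That of mir-64 was -0.50 with lane as a fixed term and -0.47 in the 2 ages alone or without either 20-day library. The fall of mir-229 was -0.57 with lane as a fixed term and still passed. Over all hairpins the split of 54 higher to 39 lower became 40 to 51 after total-count scaling, which moved the median log2 change by -0.28; RLE factors moved it by -0.13. Of the 14 tissue-restricted hairpins 7 rose, all from the 8 of embryos and germline, and the neuronal mir-124 fell (-0.63). The neuronal lsy-6 (-0.56) and mir-791 (0.16) did not pass. The part of tissue-restricted hairpins in the changes of the family was not tested.

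Between the first and last age, 4 of the 5 hairpins fell. mir-63 fell 2.04-fold (log2 change -1.03 ± 0.14 (SE), edgeR adjusted p = 4.09e-06), mir-229 fell 1.96-fold (-0.97 ± 0.21, adjusted p = 0.000539), mir-65 fell 1.81-fold (-0.85 ± 0.14, adjusted p = 2.56e-05) and mir-64 fell 1.51-fold (-0.59 ± 0.15, adjusted p = 0.00157). mir-66 had a log2 change of 0.17 ± 0.14 that did not pass (adjusted p = 0.288). Among all hairpins 62.8% passed at 20 against 1 day, 33.1% as higher and 29.7% as lower. Each of the 5 members, mir-66 included, was free of overlap between these ages, where 75.9% of all hairpins had no overlap. The median log2 change was -0.85 for the 5 and -0.03 for all hairpins. The 4 falls held under every alternative run, although that of mir-229 was -0.62 without replicate 1 of the 20-day group. mir-66 passed as higher without replicate 1 of the 10-day group (0.26, adjusted p = 0.0273) or with mir-64 and mir-65 summed (0.27, adjusted p = 0.0405), and its change was -0.03 with total counts or a minimum of 50 CPM. Among the 14 tissue-restricted hairpins, 9 rose and 3 fell at 20 against 1 day, with a median log2 change of 0.65. The 3 that fell were mir-1 of muscle (-1.68), mir-60 of the intestine (-1.30) and lsy-6 of taste neurons (-1.39). The part of such tissue markers in the changes of the family was not tested.

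From 5 to 10 days mir-66 rose again, 1.44-fold (log2 change 0.52 ± 0.12 (SE), edgeR adjusted p = 0.00234), and was the single member to pass; 37.2% of all hairpins passed, 29.0% as higher and 8.28% as lower. The log2 changes of the others were -0.26 for mir-63, 0.19 for mir-64, 0.25 for mir-65 and -0.08 for mir-229, and 2 members had no overlap between the ages, against 45.5% of all hairpins. This step depended on scaling: the median log2 change of all hairpins was 0.19 with TMM and moved by -0.19 with RLE factors, -0.20 with total counts and 0.22 with upper quartiles. All hairpins that passed were split 42 higher to 12 lower with TMM, but 26 to 28 after RLE, 25 to 29 after total-count and 65 to 9 after upper-quartile scaling. With RLE factors or total counts mir-63 passed as lower (-0.46 in both), and mir-66 still passed as higher (0.32 in both). The fall of mir-63 also passed with no filter (-0.44), a minimum of 50 CPM (-0.53) or DESeq2 (-0.46). It did so too in the 2 ages alone (-0.48) or with mir-64 and mir-65 summed (-0.42). Over all alternatives its change ran from -0.53 to -0.04. With upper quartiles mir-64 (0.41, adjusted p = 0.0447) and mir-65 (0.47, adjusted p = 0.0190) passed as higher beside mir-66. Among the 14 tissue-restricted hairpins 7 rose, all of them among the 8 of embryos and germline, and the intestinal mir-60 fell (-0.68); their part in these changes was not tested. Without replicate 1 of the 10-day group mir-66 did not pass (0.26, adjusted p = 0.0547), and without replicate 2 of the 20-day group its change was 0.35. mir-63 passed as lower without 1-day replicate 1 (-0.30), 1-day replicate 2 (-0.43), 5-day replicate 2 (-0.32), 10-day replicate 1 (-0.48) or either 20-day library (-0.44).

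From 10 to 20 days 3 of the 5 members fell, and for the others no change passed. mir-63 fell 2.59-fold (log2 change -1.38 ± 0.14 (SE), edgeR adjusted p = 5.34e-07), the 12th lowest change of the 145 hairpins. mir-66 fell 1.58-fold (-0.66 ± 0.14, adjusted p = 0.000647) and mir-65 fell 1.37-fold (-0.45 ± 0.14, adjusted p = 0.0106). mir-64 (-0.28 ± 0.15) and mir-229 (-0.11 ± 0.21) did not pass. With 3 of 5 members lower, the share over all hairpins was 24.8% as lower and 44.8% in either direction. For 4 members the ages did not overlap, as for 67.6% of all hairpins, and the median log2 change was -0.45 for members and -0.09 for all. mir-63 and mir-66 held their calls under every alternative run. mir-66 was -0.41 without 1-day replicate 2, -0.32 without 10-day replicate 1, and -0.41 and -0.39 without 20-day replicate 1 or 2. The fall of mir-65 was lost without 1-day replicate 2 (-0.20), 10-day replicate 1 (-0.21), 10-day replicate 3 (-0.39) or 20-day replicate 1 (-0.19) or 2 (-0.20), and with RLE factors, no filter, a minimum of 50 CPM or DESeq2 (-0.32 to -0.27). With the counts of mir-64 and mir-65 summed, the pair did not pass over this step (-0.13 ± 0.12, adjusted p = 0.393). In the summed fit the median over all hairpins lay 0.23 above that of the main fit. The value of the pair includes this shift, so it does not show what summing alone does to the fall of mir-65. Over all hairpins the split of 29 higher to 36 lower became 42 to 30 with RLE factors and 23 to 47 with upper quartiles. Their median log2 change moved by 0.24 without 1-day replicate 2 and 0.26 without 10-day replicate 1. It moved by 0.29 and 0.20 without 20-day replicate 1 or 2, but by 0.007 without 10-day replicate 3. The values of mir-65 and mir-66 in these fits include that move. Of the 14 tissue-restricted hairpins 5 rose and 2 fell over the same step. The muscle mir-1 and the intestinal mir-60 fell (-1.50 and -1.33), and the glial mir-228 rose (0.87). From embryos and germline mir-36 (0.79), mir-37 (0.61), mir-39 (0.79) and mir-42 (0.70) rose. The part of these tissue-restricted hairpins in the falls of the family was not tested.

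At 20 against 5 days mir-63 fell 3.11-fold (log2 change -1.64 ± 0.14 (SE), edgeR adjusted p = 2.25e-08), and no other member passed. The other 4 had log2 changes between -0.20 and -0.10, and 4 of the 5 overlapped between the ages. Of all hairpins 60.7% passed, 26.2% as lower, and 69.7% had no overlap. With total counts or a minimum of 50 CPM mir-65 and mir-66 also passed as lower (-0.34 to -0.25), and mir-65 did so without replicate 1 of the 5-day group (-0.28). Of the 14 tissue-restricted hairpins 8 rose and 2 fell over the same span: the intestinal mir-60 fell (-2.01), as did the muscle mir-1 (-1.68), and the glial mir-228 rose (0.91) with 7 of the 8 of embryos and germline. Their part in the fall of mir-63 was not tested.

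**Figure D2:**
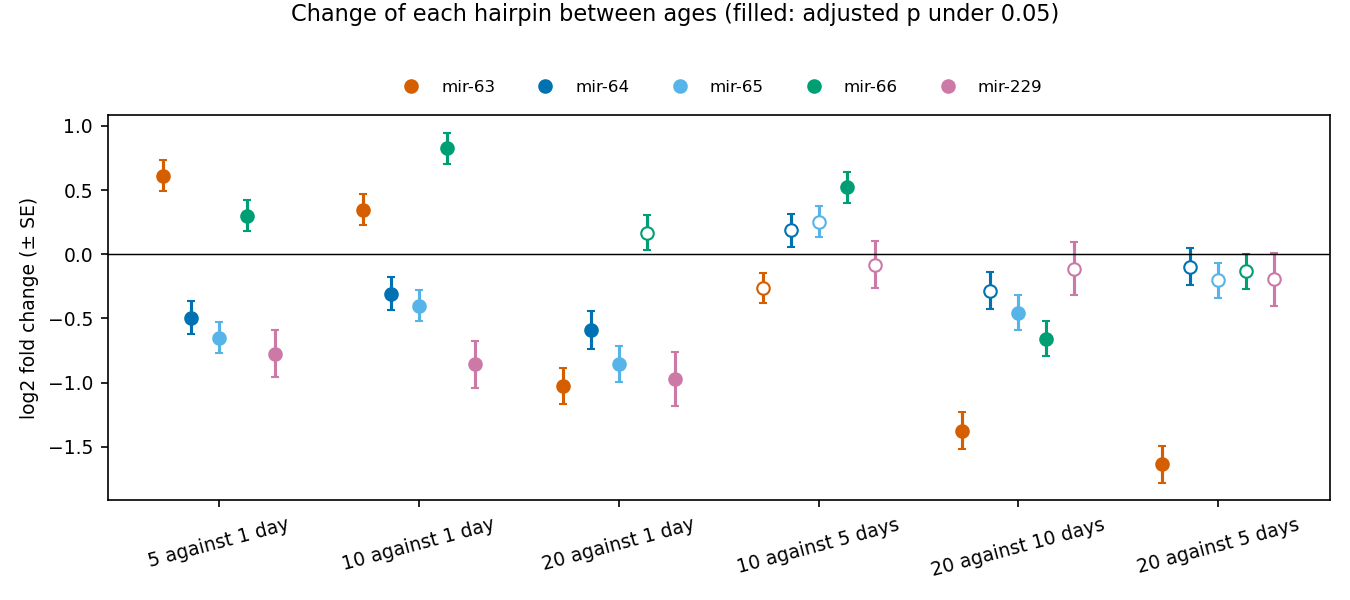
Log2 fold change ± SE (vertical axis) of the 5 hairpins in 6 comparisons of ages, from edgeR with TMM scaling; filled points had an adjusted p under 0.05 and open points did not. mir-63 lay lowest in the comparisons of 20 against 5 and 10 days, and mir-66 lay apart from mir-64, mir-65 and mir-229 in those against 1 day.

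A contrast of the middle ages against the outer ones was formed as the mean log2 level at 5 and 10 days minus that at 1 and 20 days. mir-63 was 1.99-fold higher at the middle ages (log2 difference 0.99 ± 0.09 (SE), edgeR adjusted p = 2.30e-07), the 8th highest value of 145, and mir-66 was 1.39-fold higher (0.48 ± 0.09, adjusted p = 0.000323). mir-64 (-0.11 ± 0.10), mir-65 (-0.10 ± 0.09) and mir-229 (-0.33 ± 0.14) did not pass, the last with an adjusted p of 0.0547. In all, 46.9% of hairpins passed, 23.4% as higher. Both rises were kept under every alternative run, with values of 0.81 to 1.07 for mir-63 and 0.32 to 0.52 for mir-66, whose lowest was without replicate 1 of the 10-day group. The intestinal mir-60 (1.02) and the muscle mir-1 (0.75) were also higher at the middle ages, and the glial mir-228 (-0.52) was lower. Of the 14 tissue-restricted hairpins 3 were higher and 3 lower, and their part in the values of mir-63 and mir-66 was not tested. mir-229 passed as lower with RLE or total-count scaling (-0.38 and -0.42), no filter, a minimum of 50 CPM or DESeq2. It also did without 1-day replicate 2 (-0.45) or 3 (-0.40), 5-day replicate 2 (-0.45), 10-day replicate 1 (-0.50) or 20-day replicate 1 (-0.59). Without replicate 2 of the 1-day group mir-64 (-0.25) and mir-65 (-0.24) passed as lower too.

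Whether members moved differently with age was asked of their ratio within each library, which does not depend on scaling. The 1-day libraries had 5.63, 5.10 and 5.37 counts of mir-65 for each count of mir-66. This ratio was 2.24, 3.04 and 3.10 in the 5-day libraries, 2.03, 2.39 and 2.53 in those of 10 days, and 2.62 and 2.67 in those of 20 days. Every 1-day library was above every later one, and the later ages overlapped or lay close together. The mean log2 ratio fell from 2.42 ± 0.07 (SD, n = 3) at 1 day to 1.20 ± 0.17 at 10 days (n = 3) and was 1.40 ± 0.02 at 20 days (n = 2). By an exact two-sided permutation test of the F statistic over all 92400 assignments of the 11 libraries to ages, this ratio differed with age (p = 0.00591; 0.00739 after Benjamini-Hochberg adjustment over the 10 ratios of members).

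The ratio of mir-63 to mir-66, the members that were higher at the middle ages, also differed with age (exact permutation p = 6.49e-05, the smallest that these assignments can give, adjusted p = 0.000216). Its log2 mean was -2.91 ± 0.04 at 1 day, -2.60 ± 0.04 at 5 days and -3.38 ± 0.07 at 10 days (SD, n = 3 each), and -4.10 ± 0.20 at 20 days (n = 2). No age overlapped with another in this ratio, and mir-63 lost ground to mir-66 at each step after 5 days. Against mir-65, mir-63 was at a log2 ratio of -5.34 ± 0.03 at 1 day, -4.07 ± 0.22 at 5 days, -4.59 ± 0.11 at 10 days and -5.51 ± 0.18 at 20 days, with the same exact permutation p and adjusted p. The mean difference of 20 from 1 day was -0.17 on the log2 scale, but it rested on single libraries, being -0.043 without replicate 1 and -0.30 without replicate 2 of the 20-day group.

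mir-64 and mir-65 stayed closest to each other. The ratio of mir-64 to mir-65 was 0.842, 0.854 and 0.851 in the 1-day libraries and 0.916, 0.995 and 0.920 in the 5-day libraries. It was 0.888, 0.904 and 0.918 in the 10-day libraries, and 1.04 and 0.998 in those of 20 days. The 1-day libraries were the lowest and the 20-day libraries the highest. The drift of 0.26 log2 units from 1 to 20 days was smaller than the change of either hairpin but larger than the spread within an age (SD 0.01 to 0.07; exact permutation p = 0.00325, adjusted p = 0.00649). Since the sources do not say how shared reads were counted, the size of this drift is uncertain. With the counts of both summed, the pair fell by 0.62 ± 0.12 (SE) on the log2 scale at 20 against 1 day (edgeR adjusted p = 0.000336). The summed pair also fell from 1 to 5 days, with a log2 change of -0.55 ± 0.11 (adjusted p = 0.000705), and the fall from 1 to 10 days was -0.50 ± 0.11 (adjusted p = 0.000932). In this fit the pair was lower at the middle ages than at the outer ones (-0.21 ± 0.08, adjusted p = 0.0403). It did not pass at 10 against 5 days (0.056 ± 0.11, adjusted p = 0.704), at 20 against 10 days (-0.13 ± 0.12, adjusted p = 0.393) or at 20 against 5 days (-0.073 ± 0.12, adjusted p = 0.628). These values include a shift of the summed fit against the main one. Its median over all hairpins was -0.13 at 10 against 1 day, -0.16 at 10 against 5 days and 0.10 at 20 against 1 day. The shift was 0.23 at 20 against 10 days and -0.10 in the middle-age contrast. In the main fit neither mir-64 (-0.11) nor mir-65 (-0.10) passed in that contrast. The lower level of the pair at the middle ages therefore cannot be told from the shift.

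Of the 10 ratios, 8 differed with age at an adjusted p under 0.05 over the 10. The other 2 were those of mir-229 to mir-64 (exact permutation p = 0.142, adjusted p = 0.158) and to mir-65 (p = 0.203, adjusted p = 0.203), so a difference in course between mir-229 and these neighbours was not detected with 11 libraries. Without replicate 2 of the 20-day group the ratio of mir-64 to mir-229 did pass (adjusted p = 0.0377). The ratio of mir-66 to mir-229, the ends of the cluster, rose by 1.68 log2 units from 1 to 10 days and by 1.14 from 1 to 20 days (exact permutation p = 0.00273, adjusted p = 0.00649).

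**Figure D3:**
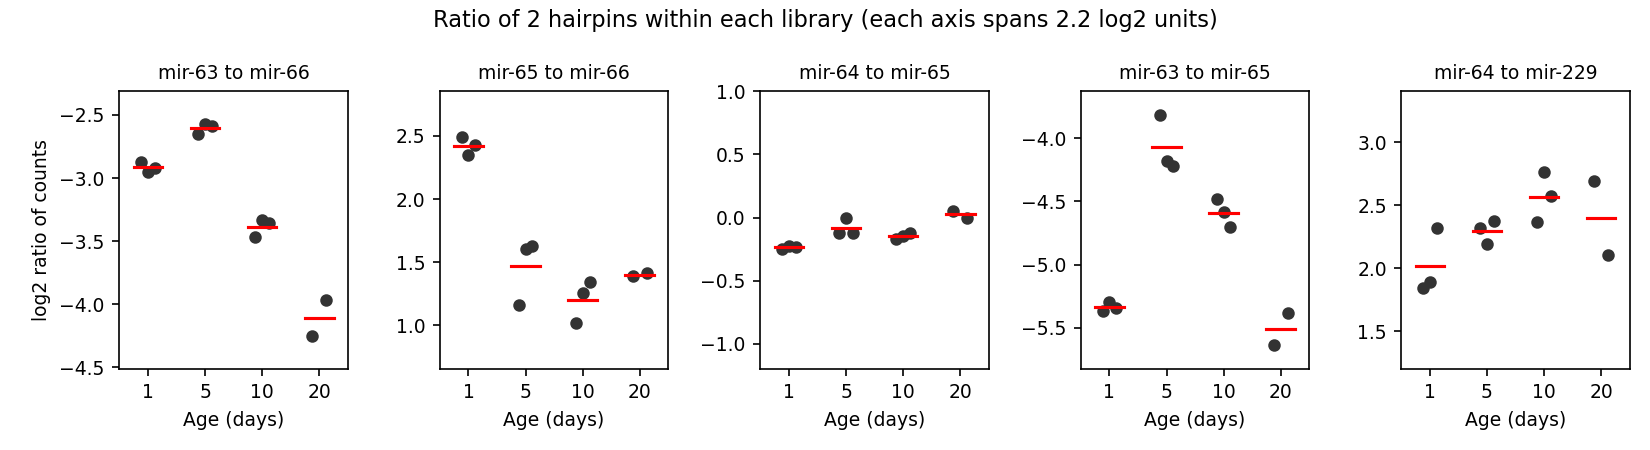
Log2 ratio of the counts of 2 hairpins (vertical axes, each spanning the same number of log2 units) against age in days, with a point per library and a red line for the mean. The ratio of mir-65 to mir-66 dropped after 1 day and that of mir-63 to mir-66 fell from 5 to 20 days, while that of mir-64 to mir-65 moved by 0.26.

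Together the 5 hairpins made up 5.13%, 4.50% and 4.43% of all counts in the 1-day libraries and 2.68%, 3.52% and 3.35% in the 5-day libraries. They made up 3.26%, 3.12% and 3.37% in the 10-day libraries, and 2.62% and 2.57% in those of 20 days. Every 1-day library was above all later ones. In TMM-scaled values the sum was 42637 ± 3169 CPM at 1 day, 30593 ± 3515 at 5 days, 36072 ± 3438 at 10 days (SD, n = 3 each) and 27136 ± 692 at 20 days (n = 2). The make-up of the sum shifted: mir-66 held 8.22 ± 0.37% of the family's counts at 1 day, 14.3 ± 2.44% at 5 days, 17.2 ± 1.65% at 10 days (SD, n = 3 each) and 14.5 ± 0.33% at 20 days (n = 2), and mir-65 held 44.0 ± 0.72%, 39.0 ± 1.19%, 39.5 ± 0.87% and 38.3 ± 0.29%. mir-63 never held more than 2.72%. No test was made on the sum or on the shares, since the members were chosen as a list.

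**Figure D4:**
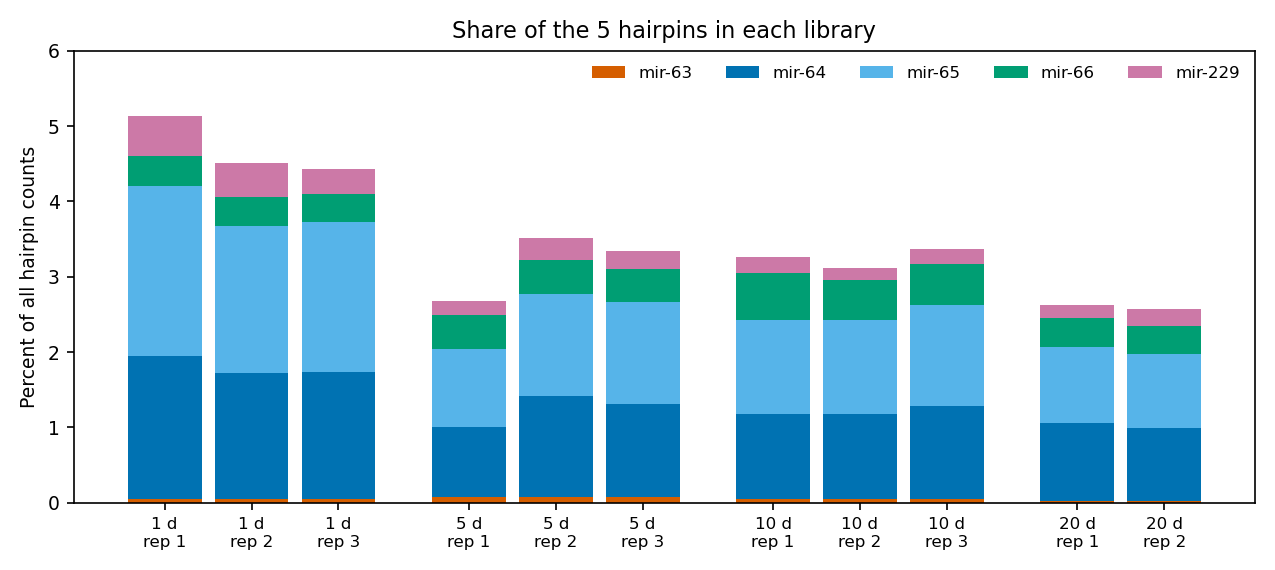
Percent of all hairpin counts (vertical axis, from 0) held by each of the 5 hairpins, stacked, in the 11 libraries ordered by age. The stack stood at 4.43% to 5.13% at 1 day and at 2.57% to 3.52% later. The part of mir-66 was 0.37% to 0.40% at 1 day, 0.52% to 0.62% at 10 days, and 0.39% and 0.37% at 20 days.

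The split within the chromosome III cluster was set beside other neighbouring hairpins. Among the 145 tested hairpins there were 19 pairs of neighbours on the same strand with a gap of at most 1000 bases, 3 of them in this cluster. The log2 changes of mir-65 and mir-66 at 10 against 1 day differed by 1.23, the widest of the 19 pairs, whose median was 0.41. At 20 against 1 day they differed by 1.02, the 5th widest, with a median of 0.42. mir-64 and mir-65 differed by 0.09 and 0.26, and mir-229 and mir-64 by 0.55 and 0.38. Pearson's r of log2 CPM over the 11 libraries was -0.17 for mir-65 and mir-66, 0.98 for mir-64 and mir-65 and 0.82 for mir-229 and mir-64, where the median of the pairs was 0.82 and 3 were negative. These are descriptions, since pairs share hairpins and all values share libraries and scaling; the other 2 negative pairs joined mir-55 to mir-54 and to mir-56 of the mir-51 family.

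**Figure D5:**
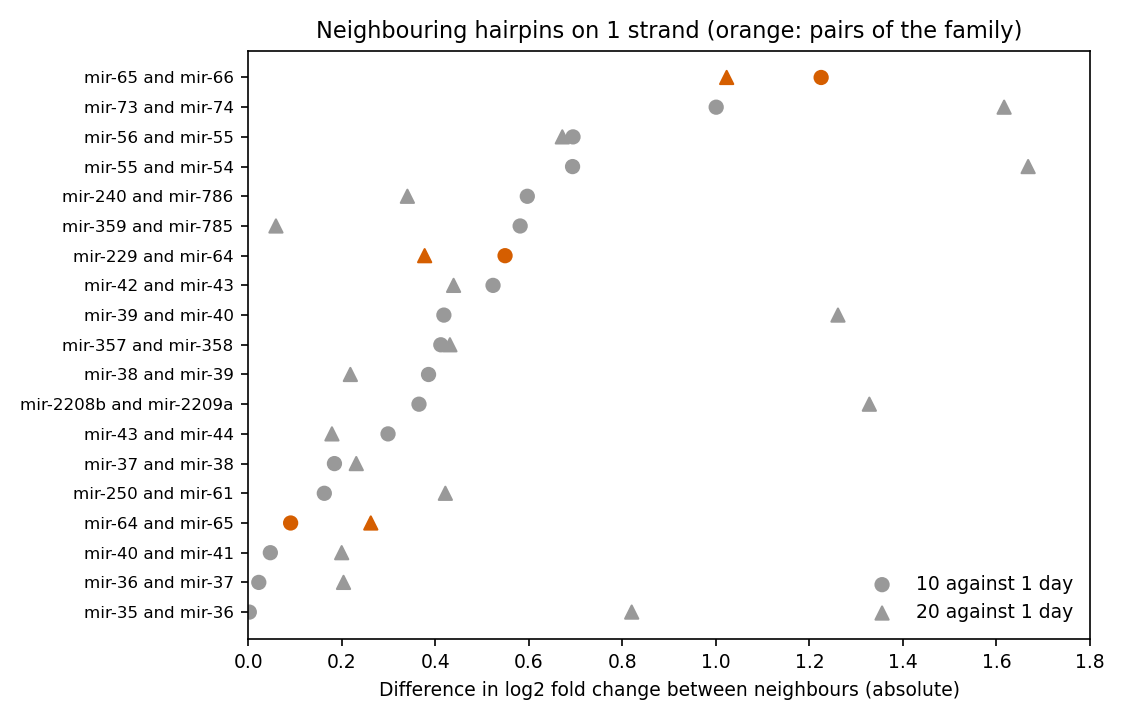
Absolute difference in log2 fold change (horizontal axis) between neighbouring hairpins of 19 pairs (vertical axis) at 10 against 1 day (circles) and 20 against 1 day (triangles). The pair of mir-65 and mir-66 lay farthest right among the circles, at 1.23.

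The hairpins most like each member across libraries were picked as the most correlated of many candidates. Such a pick is likely to exceed the r with some of the few other members, so it says nothing about the family. Among 92 other hairpins that averaged 50 CPM or more, mir-63 was most like mir-71 (Pearson's r = 0.99 over 11 libraries of log2 CPM), a microRNA needed for normal lifespan, then mir-47 (0.96) and mir-80 (0.96), while its r with the other members was 0.11 to 0.41. mir-66 was most like mir-48 of the let-7 family (0.90), mir-58a (0.87) and mir-242 (0.87). mir-64 was most like mir-235 (0.80), mir-55 (0.78) and mir-81 (0.78), and mir-65 was most like mir-241 (0.87), mir-59 (0.86) and mir-81 (0.84), all below the r of 0.98 between mir-64 and mir-65. The r of mir-64 with mir-229 (0.82) was also above that with mir-235. For mir-229 the most like were mir-50 (0.89), mir-235 (0.87) and mir-74 (0.86), above its r with mir-64 and mir-65 (0.82 for each). These r values describe courses that share libraries, scaling and the 4 ages.

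Library descriptions end in an L and a number, read here as the sequencing lane although the labels do not say so, and 4 lanes held libraries of 2 ages. In lane 1, 20 against 1 day gave log2 ratios of -1.005 for mir-63, -0.74 for mir-64, -0.99 for mir-65, -1.003 for mir-229 and 0.09 for mir-66. In lane 3, 5 against 1 day gave 0.65 for mir-63, 0.38 for mir-66, and -0.78, -0.88 and -0.78 for mir-64, mir-65 and mir-229. In lane 5, 10 against 5 days gave 0.82 for mir-66 and -0.06 to 0.21 for the others, and in lane 7, 20 against 10 days gave -1.48 for mir-63, -0.59 for mir-66 and -0.54 to -0.37 for the others. Each ratio rests on 2 libraries and has no test. In each lane the changes called over all libraries had the same sign. This was fixed in advance, since the members called had no overlap between the ages compared.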

How the data were processed

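Total RNA had been turned into small RNA libraries by a TruSeq kit, per the labels. The deposited values are raw read counts per microRNA hairpin, which the authors did not normalize. Tools named are, per the submitters' processing notes, SAMtools 1.3.1-9, BWA 0.7.12-r1039, Trimmomatic 0.36 and CASAVA 1.8.4; reference, build and counting rule are not stated in the sources used. Samples were grouped by labelled age, and replicate numbers only name libraries. Same-age libraries differed by more than counting noise in all 10 pairs (chi-square tests). The members and lists were chosen with earlier results of these data known.

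In R 4.3.3, edgeR 4.0.16 filtered hairpins (filterByExpr; minimum count 10, total 15), scaled by TMM and fitted all 11 libraries with age as a factor; tests were quasi-likelihood F-tests with Benjamini-Hochberg adjustment over 145 hairpins at 0.05. The 145 held 99.99% of counts. Log2 changes used a prior count of 0.125, SEs are the unshrunk change over the square root of F, and log2 CPM used a prior count of 2. Ratios used a pseudocount of 0.5 (SciPy 1.17.1). Steps were tested on simulated data. Coordinates are from Ensembl release 115. Alternatives covered scaling, filters, DESeq2 1.42.0, robust fitting, lane in the model (fixed term, or random block in limma-voom, limma 3.58.1), fits to only the ages compared, mir-64 and mir-65 summed, and each library left out. Named hairpins were the 5 members, the 3 others most correlated with each among those of at least 50 CPM, and 14 tissue markers; neighbouring pairs were added after the data were seen. Mature sequences and hairpins of related seed were not analysed here.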

Additional observations from a re-analysis of the deposited data

How the results depend on the processing

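No paired analysis was possible because the labels give no replicate numbers that ages share. Lane, which pairs of ages share, was fitted as a fixed term and as a random block instead. Lanes 2, 4 and 6 held 1 library each, so a fixed lane term took up those libraries whole. That fit kept very little from which to estimate spread, so calls kept, gained or lost in it say little. Leaving out a 20-day library leaves 1, assumed to vary like the other ages. At 10 against 1 day the 5 members called became 3 with upper quartiles or with mir-64 and mir-65 summed (then 3 of 4 rows). Over all hairpins these fits called 56 as higher and 32 as lower of 145, and 46 and 42 of 144. At 10 against 5 days 1 member became 2 with RLE, total counts, no filter, a minimum of 50 CPM, DESeq2, the 2 ages alone or the summed row, and 3 with upper quartiles; without 1 library it was 1 to 2. At 20 against 5 days 1 became 3 with total counts or the 50 CPM minimum, and 1 to 2 without 1 library. In the middle-age contrast 2 became 4 with the summed row, and 2 to 5 without 1 library. Over all hairpins, total counts called 43 as higher and 48 as lower of 145 at 20 against 5 days. The 50 CPM minimum called 34 and 34 of 97 there. With the summed row 31 and 44 of 144 passed in the middle-age contrast. At 10 against 5 days the split was 26 and 22 of 222 with no filter and 19 and 26 of 97 with the 50 CPM minimum. It was 26 and 27 of 145 with DESeq2, 24 and 26 of 137 in the 2 ages alone and 26 and 21 of 144 with the summed row. Between ages, members' signs turned only for changes that had not passed. At 10 against 5 days mir-64 was -0.014 with RLE or DESeq2, -0.021 with total counts, -0.083 with the 50 CPM minimum (mir-65 -0.018) and -0.034 in the 2 ages alone; mir-229 was 0.15 with upper quartiles, 0.19 with lane fixed, and -0.34 to 0.066 without 1 library (0.0067 and 0.066 without 5-day or 10-day replicate 2). At 20 against 10 days mir-229 was 0.043 with RLE or DESeq2, 0.071 without a filter, 0.026 with the 50 CPM minimum, 0.15 with the summed row, and -0.26 to 0.40 without 1 library, above 0 (0.15, 0.24 and 0.40) without 1-day replicate 2, 10-day replicate 1 or 20-day replicate 1. It passed as lower with lane fixed (-0.46), as did mir-64 with upper quartiles (-0.46). At 20 against 5 days mir-64 was 0.00068 without 5-day replicate 2 and 0.00079 without 20-day replicate 2, and mir-229 was -0.40 to 0.14 without 1 library (0.14 without 20-day replicate 1); mir-66 at 20 against 1 day was -0.033 with total counts and -0.027 with the 50 CPM minimum. The cause was not tested. The median change over all hairpins moved, in log2 units, by -0.20 (total counts) and -0.11 (upper quartiles) at 20 against 1 day, 0.15 (RLE) and -0.17 (upper quartiles) at 20 against 10 days, and -0.12 (total counts) at 20 against 5 days. It also moved without 1-day replicate 2, 10-day replicate 1 or either 20-day library. Those moves were -0.17 to -0.16 at 10 against 1 day and -0.19 to -0.17 at 10 against 5 days. They were 0.20 to 0.29 at 20 against 10 days and -0.14 to -0.09 in the middle-age contrast. With the summed row the 4 moves were -0.13, -0.16, 0.23 and -0.10. Changes of members in these fits include such moves. Of the ratios, the 20 minus 1 day difference ranged from -0.19 to 0.092 for mir-63 to mir-229 (0.092 without 1-day replicate 3, 0.084 without 20-day replicate 2), from -0.15 to 0.38 for mir-65 to mir-229, from 0.087 to 0.67 for mir-64 to mir-229, from -0.30 to -0.043 for mir-63 to mir-65 and from -0.59 to -0.28 for mir-63 to mir-64; neither pseudocount changed a call, and the 8 ratio calls held without any 1 library. The lowest member count was 224, for mir-63 in a 20-day library, where counting error adds to the spread between libraries.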
